A study of Mus musculus with 6 samples.

Results

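The wild-type A20 transcriptome is described here from the 2 RNA-seq libraries labelled wild-type A20 replicate 1 and replicate 2, out of 6 libraries in the series. A20 is a B cell lymphoma line of the BALB/C mouse strain, and these libraries carry the activation label None. The study used this line as a host in which silenced genes of other lineages were switched on by a TET1-based CRISPR system, so the untouched cells set the starting level of every gene. The other 4 libraries, from cells with a control sgRNA or an sgRNA against the Cd4 promoter, entered only the scaling factors, and no groups were compared. Although a treatment text shared by all samples speaks of lentiviral transduction, the titles call these 2 libraries wild-type and the activation field gives None. The paper calls its wild-type A20 cells non-transduced. The cells grew in serum-supplemented RPMI medium with β-mercaptoethanol, and polyadenylated RNA was sequenced. A cultured line of lymphoma cells limits these libraries as a model of a normal B cell, and the study describes the replicates as independently repeated samples.

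B cells are the antibody-producing lymphocytes, and their identity is held by a small set of transcription factors around Pax5 and Ebf1. The B cell receptor pairs a membrane immunoglobulin with the Cd79a and Cd79b chains, whose cytoplasmic tails recruit the kinases Lyn and Syk. Activated B cells pass through the germinal centre, where the antibody class is switched and point mutations are introduced, before they become memory or plasma cells, and A20 cells belong to the class-switched IgG lymphomas.

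The replicates held 49778949 and 23194920 counts. Levels are given as CPM, the usual scaling of counts by library size, or as CPM per kb, which is CPM divided by the counted gene length in kilobases and is the scale on which the levels of genes are compared with each other here. Shares of counts and the classes below rest on counts or CPM, which also grow with gene length. A gene was called expressed at 1 CPM or more in both libraries, silent at 3 counts or fewer in both, and between otherwise. A count of 3 was 0.0646 CPM in replicate 1 and 0.140 CPM in replicate 2, so replicate 1 reaches lower levels. Of 25227 genes kept, 10615 (42.1%) were expressed, 12166 (48.2%) were silent and 2446 (9.70%) lay between. Among the 20970 protein-coding genes the shares were 47.8% expressed, 43.2% silent and 9.05% between. These shares are the background against which each gene list below is read. Ranks are among the genes kept, since mitochondrial transcripts and identifiers without a symbol, some of them higher per kb than genes ranked here, were left out.

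**Figure D1:**
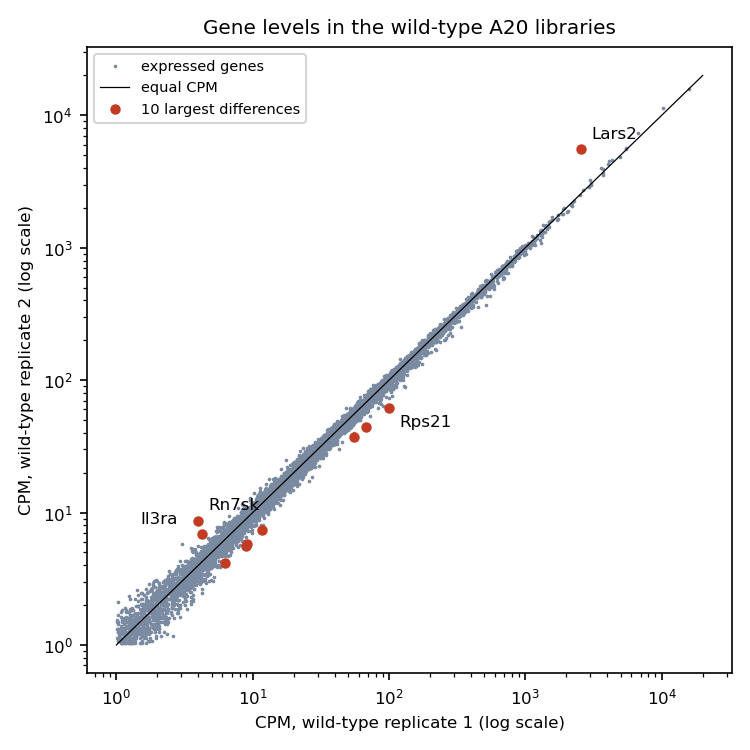
Each point is an expressed gene, with its CPM in wild-type replicate 1 on the x axis and in replicate 2 on the y axis, both on log scales. The 10615 genes lie along the line of equal CPM, and Lars2 and Rn7sk stand off it with higher values in replicate 2.

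The replicates gave nearly the same profile. Across the 10615 expressed genes, Pearson's r of log2 CPM was 0.9976, which is a description over genes and not over independent samples. For the 9315 genes of at least 5 CPM on average, the median absolute log2 ratio between the replicates was 0.0645 and the median SD was 3.16% of the mean. The spread was still wider than counting alone gives, since 2603 of these genes (27.9%) lay past the 95% counting interval of their ratio. Only 2 genes differed by more than 1 on the log2 scale. Rn7sk, a short nuclear RNA that lacks a poly(A) tail, stood at 3.98 and 8.69 CPM, and Lars2, the mitochondrial leucyl-tRNA synthetase, at 2557 and 5562 CPM. The next largest differences were in Rps21, Il3ra, Rps12, Gm8213, Klhl9, Gm10029, Gm10193 and Rps29, of which only Il3ra was higher in replicate 2.

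All 4 B cell markers were high in both libraries. Cd79a, a signalling chain of the B cell receptor (gene 12518, chr7:24897497-24901858 in mm10), had 21705 and 9329 counts, or 352 and 328 CPM per kb (340.2 ± 16.7, SD, n = 2, as for every SD below). Ms4a1, which encodes CD20, stood at 168 and 174 CPM per kb, and Pax5, the factor that commits cells to the B lineage, at 64.5 and 60.6 CPM per kb. Cd74, the invariant chain that guides MHC class II molecules to the endosome, reached 3865 and 3905 CPM per kb and was the fourth highest of the genes kept. The label of the line is thus met by its markers in both replicates.

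The promoter windows of Cd79a and of Cd3e, a T cell receptor chain with 0 counts in both libraries, are printed to show an expressed and a silent lineage gene side by side. The windows run from 250 bases before to 50 bases after the RefSeq gene start (GRCm38.p6, the build called mm10), 5′ to 3′ on the gene's strand, and capitals mark each CpG. Cd79a lies at chr7:24897247-24897546 on the plus strand and Cd3e at chr9:45009562-45009861 on the minus strand.
Cd79a: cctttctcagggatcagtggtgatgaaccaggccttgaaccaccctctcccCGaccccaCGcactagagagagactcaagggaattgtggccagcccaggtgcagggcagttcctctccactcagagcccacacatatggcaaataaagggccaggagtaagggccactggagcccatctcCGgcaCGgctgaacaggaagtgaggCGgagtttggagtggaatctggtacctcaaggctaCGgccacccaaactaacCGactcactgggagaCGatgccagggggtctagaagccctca
Cd3e: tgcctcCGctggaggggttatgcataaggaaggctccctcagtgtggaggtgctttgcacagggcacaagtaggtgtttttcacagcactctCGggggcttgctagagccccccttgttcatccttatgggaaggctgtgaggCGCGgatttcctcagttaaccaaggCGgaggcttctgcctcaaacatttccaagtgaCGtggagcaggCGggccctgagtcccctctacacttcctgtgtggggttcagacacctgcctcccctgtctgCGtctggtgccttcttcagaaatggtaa
Both windows are poor in CpG. Each holds 8 CpG, with an observed over expected ratio of 0.314 in Cd79a and 0.333 in Cd3e, so the CpG content of these windows did not set the expressed gene apart from the silent one.

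Every gene of the B cell identity list was expressed, 33 of 33, with a median of 65.2 CPM per kb beside 0.0605 over all genes kept and 13.6 over the expressed genes. The list was chosen with earlier results of these data known, so its full share is a description and not a test of identity. Among the 14 transcription factors, Pou2af1, the B cell co-activator of the octamer-binding factors, led at 1027 and 1065 CPM per kb. Irf8 (269 ± 3.27 CPM per kb), Ikzf3 (154 ± 2.36) and Spib (150.1 ± 6.31) followed. Ebf1 and Bach2 were the lowest of the 14, at 8.05 and 1.44 CPM per kb, and Pou2f2, the octamer-binding partner of Pou2af1, stood at 23.5. Of the 19 surface proteins, Cd79b led at 540.1 and 556 CPM per kb, 1.61 ± 0.112 times the level of Cd79a. Cd52 and Cd37, a glycoprotein and a tetraspanin of lymphocytes, stood at 450.1 and 352 CPM per kb. Fcer2a (CD23) and Cr2 (CD21), which are typical of mature resting B cells, were expressed at 3.14 and 5.67 CPM per kb.

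**Figure D2:**
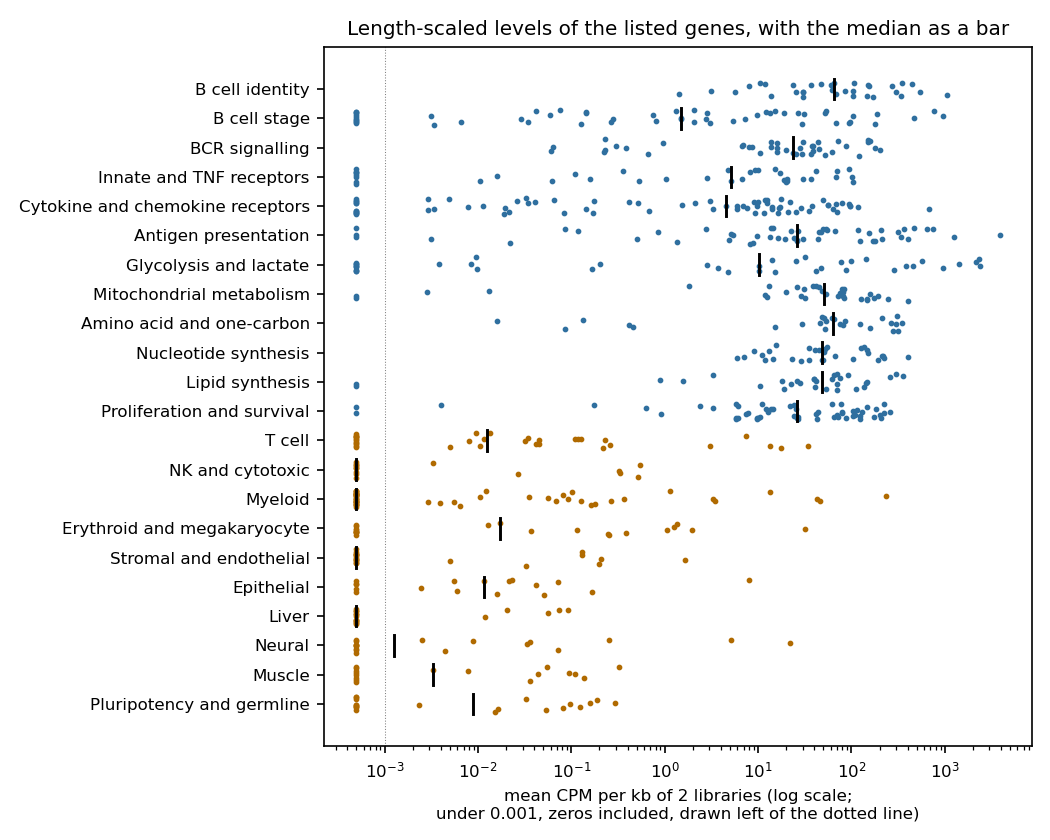
Each point is a listed gene at its mean CPM per kb over the 2 libraries on a log x axis, grouped by gene list on the y axis, with the list's median as a black bar. Lists of B cell functions and metabolism are blue and lists of other lineages are brown, and values under 0.001 are drawn left of the dotted line. The B cell identity genes all lie above 1 CPM per kb, whereas the medians of the 10 other-lineage lists lie below 0.1.

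Antibody transcripts came mainly from an IgG heavy chain, and κ led λ on the light-chain constant regions. Of the counts on the heavy-chain constant regions, Ighg2c (chr12:113287389-113288932) took 78.6% in replicate 1 and 79.0% in replicate 2, at 4006 and 4230.0 CPM per kb, second among the genes kept. The C57BL/6 reference carries Ighg2c where BALB/c mice carry the Ighg2a allele, so reads counted at Ighg2c cannot be told apart from Ighg2a transcripts here. Ighg2b (354 CPM per kb), Ighg1 (275) and Ighg3 (216) held 8.23%, 7.73% and 4.94% of these counts on average, and because the IgG genes are close copies of each other, their shares are uncertain. Ighm and Ighd, the constant regions of IgM and IgD that naive B cells use, had 0 counts in both libraries. Measured against the floor of 3 counts in each library, Ighg2c was at least 45015-fold higher than Ighm per kb. Igha and Ighe stood at 2.01 and 8.72 CPM per kb.

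Among the light chains, Igkc reached 2017 and 1941 CPM per kb. It took 65.0% and 66.2% of the light-chain constant-region counts. Iglc1 (499.8 ± 6.70 CPM per kb) and Iglc3 (532 ± 61.8) held nearly all the rest, so λ transcripts were also present. Among the V segments the lead of κ was smaller, as the κ segments together held 14735 and 6303 counts and the λ segments 12480 and 5386. Igkv1-117 and Igkv1-110 led the 102 κ V segments with 6701 and 5192 counts in replicate 1, and Iglv1 took 93.0% and 93.4% of the λ V counts. On the heavy-chain side, all 120 V segments together held 514 and 220 counts, against 238480 and 115399 counts on the constant regions, and only Ighv1-64 and Ighv8-13 were expressed. How far mutated or BALB/c V sequences fail to align to this reference was not tested. At the T cell receptor loci, none of the constant, J or D segments had a count, and the only V reads were 3 at the Tra locus in replicate 1.

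The stage markers were uneven. Of the germinal centre genes 10 of 11 were expressed and none was silent, with a median of 31.2 CPM per kb. Mef2b, a MADS-box factor upstream of Bcl6, stood at 736 and 778 CPM per kb. Bcl6, the germinal centre repressor, was at 101 and 105, and Rgs13, a regulator of G protein signalling, at 92.5 and 96.3. Gpr183, a migration receptor that germinal centre cells turn down, had 5 and 2 counts.

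Of the plasma cell genes 8 of 12 (66.7%) were expressed, beside 47.8% of protein-coding genes. The highest were Mzb1 (959 ± 11.7 CPM per kb), Jchain (469 ± 7.06) and Xbp1 (181 ± 0.0643), which serve antibody assembly and secretion, and Slamf7 (26.9). Fkbp11, a folding factor of the endoplasmic reticulum, had 2 and 0 counts. Prdm1, the factor that ends the B cell programme, was at 0.787 and 0.726 CPM per kb, so the level of Pax5 was 82.7 ± 0.952 times that of Prdm1. Tnfrsf17, the plasma cell survival receptor BCMA, had 0 counts in both. Of the 13 pro-B and pre-B genes, 9 were silent, and Dntt, Vpreb2, Igll1, Kit, Cd34, Erg and Sox4 had no count in either library. Flt3 (13.3 CPM per kb), Lef1 (3.06), Rag2 (2.87) and Rag1 (1.49) were the exceptions. The recombinase genes Rag1 and Rag2 were thus measured in both libraries, with 475 and 208 counts for Rag1 and 420 and 223 for Rag2, at levels well under the median of expressed genes. Memory and activation markers were mixed at 6 of 10, led by Batf (188 CPM per kb) and Zbtb32 (96.8). Of the marginal zone and B-1 genes 4 of 9 (44.4%) were expressed, near the 47.8% of protein-coding genes. The highest of them was Mzb1, which was also counted among the plasma cell genes.

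The window of Mef2b is printed because it is the most abundant germinal centre factor and, like Tlr9 below, holds a perfect octamer, the motif ATTTGCAT bound by Pou2f2 and its co-activator Pou2af1. The octamer was searched on both strands and is in capitals. Mef2b lies at chr8:70152511-70152810 and Tlr9 at chr9:106222348-106222647, both on the plus strand.
Mef2b: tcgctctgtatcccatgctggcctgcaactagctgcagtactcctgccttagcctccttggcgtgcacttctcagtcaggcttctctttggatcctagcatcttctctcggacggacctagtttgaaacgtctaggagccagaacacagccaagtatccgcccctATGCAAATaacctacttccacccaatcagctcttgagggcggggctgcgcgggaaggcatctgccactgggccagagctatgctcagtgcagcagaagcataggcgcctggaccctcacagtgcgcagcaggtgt
Tlr9: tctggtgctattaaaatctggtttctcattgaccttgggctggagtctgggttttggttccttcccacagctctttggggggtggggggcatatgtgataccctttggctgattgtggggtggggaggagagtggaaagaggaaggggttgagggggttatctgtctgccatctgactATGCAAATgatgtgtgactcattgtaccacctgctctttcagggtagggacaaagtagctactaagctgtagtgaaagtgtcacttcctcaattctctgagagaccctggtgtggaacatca
The octamer begins at position -85 in Mef2b and at -72 in Tlr9, counted from the gene start. It is a rare match, found in 1.75% of all 27025 promoter windows, in 1.34% of those of expressed genes and in 2.00% of those of silent genes, so on its own the motif did not go with expression across genes.

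The machinery of B cell receptor signalling was nearly complete, with 35 of 41 genes expressed, none silent and a median of 23.7 CPM per kb. Among the kinases and adaptors, Blnk, the adaptor that Syk phosphorylates, stood at 157 and 163 CPM per kb, Plcg2 at 151 and 153, Prkcb at 150.2 on average and Grb2 at 120.3. Syk was at 73.3 and 70.6 CPM per kb, 1.63 ± 0.0253 times the level of Btk. Of the Src kinases, Fyn stood at 37.3 CPM per kb and Lyn was 2.88 ± 0.373 times Blk (6.96), while Fgr lay between the classes. The list of inhibitory receptors and phosphatases had 10 of 12 expressed with a median of 26.5 CPM per kb, and that of kinases and adaptors 18 of 20 with 33.3. Csk, the kinase that restrains Src kinases, was at 197 and 206 CPM per kb, and the phosphatases Ptpn6 and Inpp5d were at 178 and 87.6. Fcgr2b, the inhibitory Fc receptor, reached 62.3. In the nuclear arm, Nfatc3 (39.0) and Nfatc1 (13.7) were well above Nfatc2 (0.224), and the early response genes Egr2 and Egr3 lay between the classes with 44 and 29 counts and with 20 and 9 counts.

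Of the innate and TNF-family receptor and adaptor genes 23 of 37 (62.2%) were expressed, beside 47.8% of protein-coding genes. The TNF receptor family alone, with 7 of 15 (46.7%), was near that background. Tlr9, the endosomal receptor for unmethylated CpG DNA, stood at 99.9 and 104 CPM per kb, whereas Tlr7, the receptor for single-stranded RNA, had 11 and 5 counts. The ratio of Tlr9 to Tlr7 was 1621 ± 57.6. Unc93b1, which carries both receptors to the endosome, was at 95.5 and 94.2 CPM per kb. Tlr5, Tlr8, Tlr11 and Cd14 had 0 counts. Of the 3 receptors for the survival factors BAFF and APRIL, Tnfrsf13c (103 CPM per kb) and Tnfrsf13b (67.5) were expressed and Tnfrsf17 was not. Tnfrsf1a and Ltbr, which are broadly used TNF-family receptors, had 0 counts in both libraries, as did Tnfrsf18, although the ligands Ltb (672 CPM per kb) and Lta (68.1) and the second TNF receptor Tnfrsf1b (8.27) were expressed.

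Of the cytokine and chemokine ligand, receptor and JAK-STAT genes 42 of 73 (57.5%) were expressed, beside 47.8% of protein-coding genes. The receptors Il21r (117 and 118 CPM per kb), Il9r (81.2 and 77.8) and Il2rg (70.9 on average) led the cytokine receptors, and Cxcr5, the follicle-homing receptor, led the chemokine receptors at 93.7 and 96.5, with Cxcr4 at 62.7. Ccr7, which draws cells to T cell zones, was at 0.0347 ± 0.000766 of the level of Cxcr5. Il7r had 1 and 0 counts and Il18r1 none. Stat6 (56.5) and Jak1 (49.6) led their group, and Stat4 had 0 and 1 counts. Tgfb1 (97.7), Il16 (96.6) and Il10 (16.3) were expressed, while Il2, Il4, Il6, Ifng and Cxcl13 were silent.

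Antigen presentation took 1.45% of all counts, and 44 of 51 genes in the files were expressed. All 18 class II genes were expressed. H2-Aa was at 1217 and 1269.5 CPM per kb, H2-Ab1 at 669.6 and 622 and H2-Eb1 at 205 ± 4.80, with their master regulator Ciita at 24.2. H2 genes differ between mouse strains, so these values depend on how BALB/c reads align to the C57BL/6 alleles. In the class I arm, 15 of 16 were expressed, led by the chaperone Calr (752 CPM per kb), B2m (470.0), the immunoproteasome subunit Psmb8 (399) and Pdia3 (366). Cd1d1, which presents lipids, had 0 counts in both. Of the co-stimulatory and checkpoint ligands, 11 of 17 were expressed, with a median of 8.73 CPM per kb. Cd48 (43.6) and Cd40 (30.2) led. Cd274, which encodes PD-L1, was at 9.11 and 8.35, whereas Pdcd1lg2, which encodes PD-L2, had 1 and 0 counts. Cd86 stood at 0.284 ± 0.0247 of the level of Cd80.

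**Figure D3:**
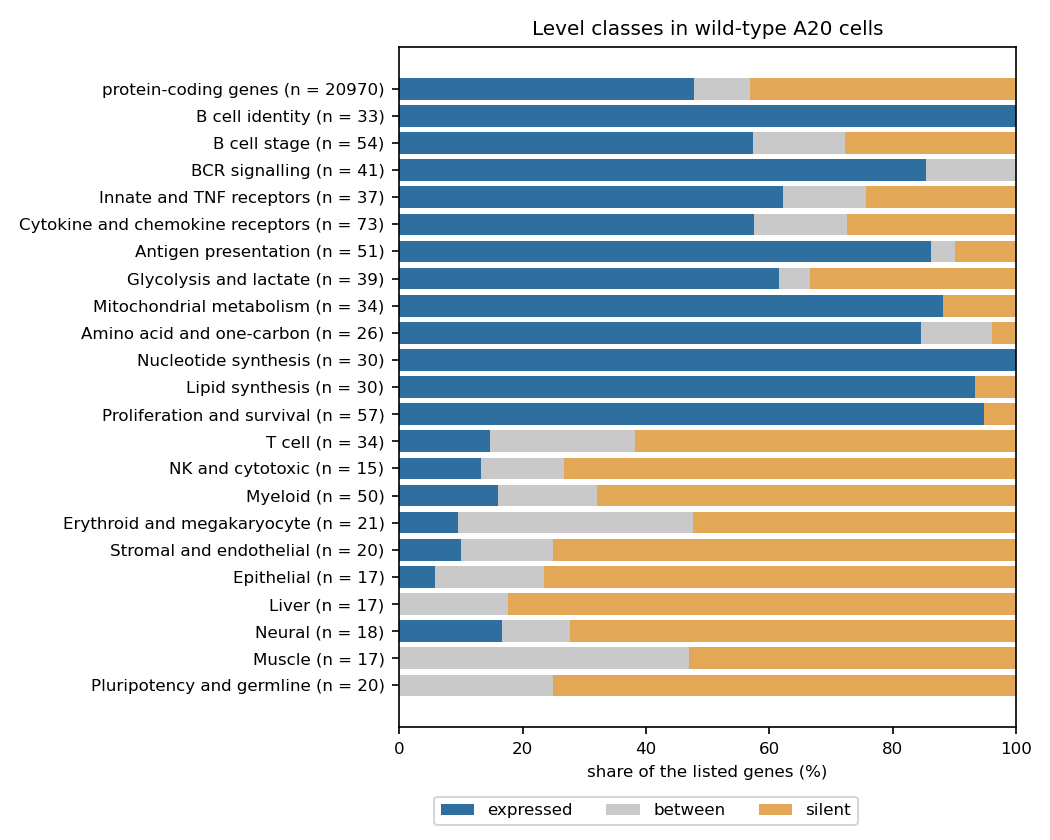
Stacked bars give the share in percent of each list's genes that were expressed (blue), between the classes (grey) or silent (orange), with the number of genes in brackets and all protein-coding genes on top. B cell identity and nucleotide synthesis are expressed throughout, and the liver, muscle and germline lists have no expressed gene.

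Glycolysis held some of the most abundant transcripts of the line, and within the enzyme families the members were at very unequal levels. Aldoa was at 2260.2 and 2476 CPM per kb, Ldha at 2223 and 2372 and Pkm at 2120.4 and 2197, which placed all 3 among the 25 highest genes kept. Paralogues of Ldha and Pkm were at or near 0. Ldhb, the heart-type lactate dehydrogenase subunit, and Ldhc had no count in either library, and Pklr had 1 and 0. Against the floor of 3 counts per library, Ldha was at least 21837-fold higher than Ldhb. Eno1b, at 4008 ± 279 CPM per kb, exceeded Eno1 by 8.83 ± 0.424 times, and Gapdh-ps15 stood at 3071 beside Gapdh at 1417. Eno1b and Gapdh-ps15 are near-identical copies of Eno1 and Gapdh, so how reads were split within each pair is uncertain. Gapdh-ps15 is placed on the Y chromosome, where each of the 95 protein-coding genes was silent. The source of the reads at Gapdh-ps15 was not tested. Of the glucose transporters, Slc2a1 (45.9 and 48.5 CPM per kb) and Slc2a3 (10.3) were expressed, and Slc2a2 and Slc2a4 had 0 counts. Lactate export genes were expressed as Slc16a3 (87.4) and Slc16a1 (31.8). Hk2 was 2.17 ± 0.285 times Hk1. Of the gluconeogenic genes, Pck2 (41.4) and Pcx (25.5) were expressed while G6pc and Fbp1 had 0 counts. Over all 39 genes of the list, 24 (61.5%) were expressed, beside 47.8% of protein-coding genes. The list held 2.28% of the counts, without those at Eno1b and Gapdh-ps15, which are not in it.

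The promoter windows of Ldha and Ldhb are printed as the clearest pair of an abundant gene and a paralogue at 0, with each CpG in capitals. Ldha lies at chr7:46845554-46845853 on the plus strand, at the first start listed for the gene, and Ldhb at chr6:142507908-142508207 on the minus strand.
Ldha: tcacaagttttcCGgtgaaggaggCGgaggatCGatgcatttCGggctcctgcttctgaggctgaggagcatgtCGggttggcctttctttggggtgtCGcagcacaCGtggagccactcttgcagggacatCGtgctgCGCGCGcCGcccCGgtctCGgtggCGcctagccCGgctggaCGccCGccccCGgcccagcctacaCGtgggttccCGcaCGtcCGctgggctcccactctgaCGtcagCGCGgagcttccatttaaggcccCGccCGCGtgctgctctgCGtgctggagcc
Ldhb: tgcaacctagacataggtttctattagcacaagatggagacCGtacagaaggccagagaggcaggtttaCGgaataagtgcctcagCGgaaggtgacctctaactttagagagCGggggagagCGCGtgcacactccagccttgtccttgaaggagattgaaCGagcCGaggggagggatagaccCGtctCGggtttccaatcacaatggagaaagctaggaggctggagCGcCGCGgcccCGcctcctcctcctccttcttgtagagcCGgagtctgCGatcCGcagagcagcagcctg
With 30 CpG the Ldha window has an observed over expected ratio of 0.882, and with 17 CpG the Ldhb window has 0.696, so both lie on the CpG-rich side of 0.6 although only Ldha was expressed.

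**Figure D4:**
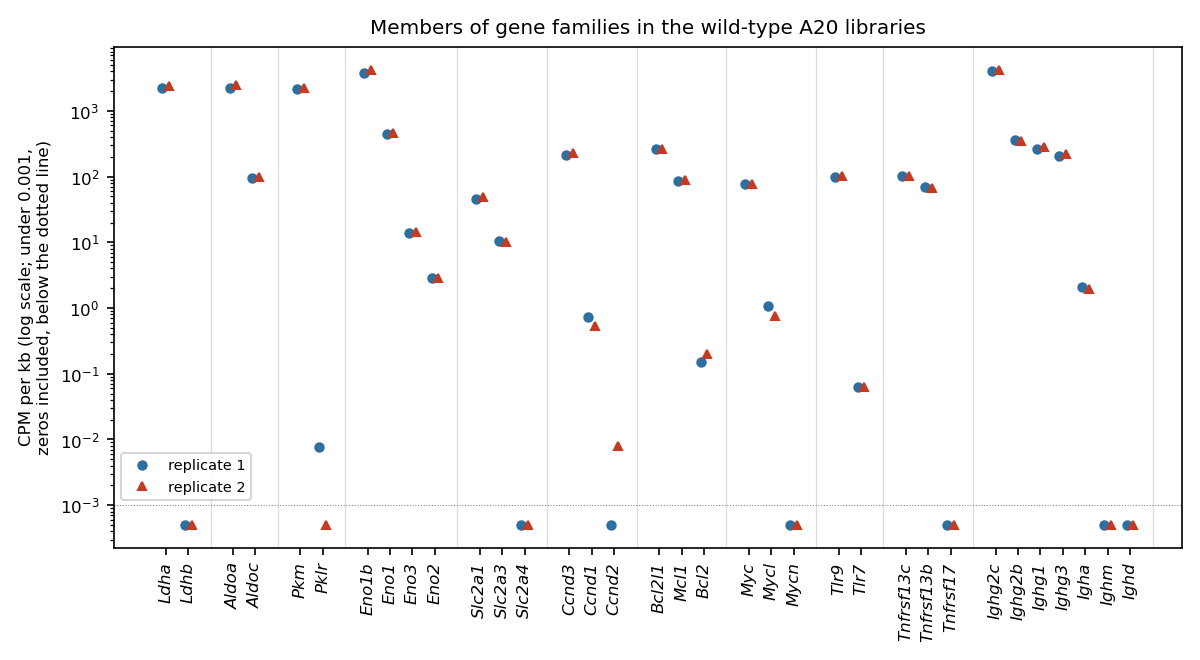
Each gene on the x axis has its CPM per kb in replicate 1 (blue circle) and replicate 2 (red triangle) on a log y axis, with values under 0.001 drawn below the dotted line, and vertical lines part the gene families. In most families shown the leading member lies orders of magnitude above at least one other, as Ldha does above Ldhb and Ccnd3 above Ccnd2.

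Mitochondrial and biosynthetic pathways were broadly expressed. All 21 genes of the TCA cycle were expressed with a median of 77.0 CPM per kb, led by Mdh2 (406 and 404), with Fh1 (175) and Sdhb (159) among the higher members. In fatty acid oxidation 9 of 13 were expressed. There Ucp2, an inner-membrane carrier, led at 245, Cpt1a was at 1.82, and Cpt1b and Ppargc1a had 0 counts. All 30 nucleotide synthesis genes were expressed, with Tkt at 397 and 416 CPM per kb and Pgd (221), Hprt (219) and Atic (212) behind it. Amino acid genes were expressed in 22 of 26 cases. The transporter Slc7a5 stood at 262 and 269 CPM per kb, and Got2 (347), Psat1 (314), Shmt2 (306), Odc1 (303) and Asns (277) led the enzymes. Slc7a11, the cystine transporter, was low at 0.453. All 16 sterol genes were expressed, led by Fdps (298 and 309) and Srebf2 (257). For fatty acid synthesis it was 12 of 14, led by Scd2 (351 and 366), with Pparg and Lpl at 0 counts.

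Cell cycle genes were expressed in 23 of 24 cases. D-type cyclins, which start the cycle through Cdk4 and Cdk6, were again unequal. Ccnd3 stood at 217 and 229 CPM per kb, Ccnd1 at 0.731 and 0.541, and Ccnd2 had 0 and 1 counts. Cdk4 was 22.9 ± 0.103 times Cdk6. Mcm6 (206), Mcm5 (204), Pcna (185) and the proliferation marker Mki67 (131 and 119) were high. Growth inhibitors were measured as well: Cdkn2a was at 127 and 117 CPM per kb, Trp53 at 77.0 and 81.3, and Cdkn1c had 0 counts. Cdkn2a encodes both p16 and p19ARF, which gene-level counts cannot separate, and a transcript level says nothing of whether the Trp53 sequence is intact.

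Among survival genes, Bcl2l1, which encodes Bcl-xL, led at 259 and 264 CPM per kb and Mcl1 followed at 84.5 and 89.3, whereas Bcl2 was at 0.150 and 0.199. Mcl1 was 506 ± 81.0 times Bcl2. Bax (175), Bak1 (129) and Bcl2l11 (71.2), which promote cell death, were expressed too. Myc stood at 76.2 and 78.4 CPM per kb, Mycl at 0.912, and Mycn had 0 counts. Tert, the telomerase catalytic subunit, was at 2.36.

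Genes of other lineages were mostly silent. In 10 lists with 229 genes in the files, 23 (10.0%) were expressed and 156 (68.1%) were silent, and 112 had 0 counts in both libraries, beside 47.8% expressed and 43.2% silent among protein-coding genes. In bulk RNA a low level can come from few cells or from little RNA per cell, and these cannot be told apart.

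For T cells, 5 of 34 genes were expressed and 21 silent. Cd4, the target of the study's guide, had 37 and 17 counts, 0.257 CPM per kb in each library, which is above the floor and below the expressed class. Cd3e, Cd8a and Cd8b1 had 0 counts in both. Cd3d had 1 and 0, Cd3g had 3 and 0, and Gata3, the factor of T helper cells, had 1 and 1. Zap70, Bcl11b, Themis and Foxp3 were at 0 as well. The 5 expressed members were Tox (34.4 in both libraries), Runx3 (17.6), Zbtb7b (13.4), Cd2 (7.51) and Lef1 (3.06), of which 4 are transcription factors with known roles outside T cells. Within the 17 receptor and co-receptor genes, Cd2 was the only one expressed.

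In the myeloid lists 8 of 50 genes were expressed. Of the 19 macrophage and monocyte genes 3 were expressed. Cd68, a lysosomal glycoprotein widely used as a macrophage marker, was at 234 and 232 CPM per kb. The macrophage genes Adgre1 and Msr1 were at 1.13 and 0.365. Lyz2, C1qa, C1qb, C1qc and Cd14 had 0 counts, Csf1r had 2 and 0, and the granulocyte genes S100a8, S100a9 and Elane had 0. Bst2 (46.3), Tcf4 (43.2) and Flt3 (13.3) from the dendritic list were expressed beside Prg2 (3.48) and Ccr7 (3.30), with Itgax and Siglech at 0. The NK list had 2 of 15 expressed, Cd244a (0.548) and Il2rb (0.521), and Ncr1, Gzma, Gzmb and Nkg7 had 0 counts.

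Erythroid genes gave an uneven picture. Hbb-bs, an adult β-globin, had 974 and 430 counts, or 32.8 and 31.4 CPM per kb, and Epor stood at 1.35. The α-globins Hba-a1 and Hba-a2 were at 1.94 and 1.05 and the embryonic Hbb-bh1 at 1.27 CPM per kb. The embryonic globins that the study activated were at the floor, with 0 counts for Hba-x and 1 and 0 for Hbb-y. Gata1 and Tal1, factors that define erythroid cells, had 0 counts, while Klf1 (17 and 9 counts) and Alas2 (28 and 8) lay between the classes. The part of other cells in the Hbb-bs counts was not tested.

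Outside the blood, shares ranged from none to 16.7% in the neural list. Of the liver genes 0 of 17, of the muscle genes 0 of 17 and of the pluripotency and germline genes 0 of 20 were expressed, and Alb, Myod1 and Nanog had 0 counts. Epcam (7.71 and 8.38 CPM per kb) was the only expressed epithelial gene of 17, with Cdh1 at 1 and 0 counts and Krt14 at 0. Tubb3 (22.1 and 21.7), Mbp (5.11) and Map2 (0.252) were the expressed neural genes of 18, with Snap25, Rbfox3 and Gfap at 0, and Tagln (1.63) and Pdgfrb (0.198) were those of the 20 stromal and endothelial genes, with Col1a2, Col3a1 and Kdr at 0.

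Large gene families ranged from nearly all silent to nearly all expressed. Among 399 zinc finger Zfp genes 301 (75.4%) were expressed, beside 47.8% of all protein-coding genes. Solute carriers lay near that background, with 153 of 352 (43.5%) expressed. Among 87 ribosomal protein genes 83 were expressed, among 78 mitochondrial ribosomal protein genes 77 and among 40 proteasome subunits 38. Only Olfr368, at 3.22 and 3.37 CPM per kb, was expressed among 1126 olfactory receptors, and 0 of 353 vomeronasal receptors, 0 of 50 keratins, 0 of 55 keratin-associated proteins and 0 of 43 β-defensins were. Hox genes were an intermediate case with 10 of 39 expressed, led by Hoxa7 (15.2 and 16.6 CPM per kb) and Hoxc4 (12.2 ± 0.231), and 1 of 58 clustered protocadherins was expressed. Each of the 95 protein-coding genes of the Y chromosome was silent, and Xist, the RNA of the inactive X, had 1 and 0 counts. On the X chromosome 33.6% of 923 protein-coding genes were expressed.

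Across the genome, silence and expression went with promoter CpG content. A promoter window was matched for 82.0% of the protein-coding genes off chromosome 18, which was not used here, and for 83.9% of the expressed and 80.7% of the silent ones. The ratio of observed to expected CpG was at least 0.6 in 6369 of 8200 windows of expressed genes (77.7%) and in 1461 of 7139 of silent genes (20.5%). When the expressed genes were ordered by level into 4 groups of 2050, the share rose from 63.8% in the lowest group to 81.7%, 82.4% and 82.9% in the others, so it changed little above the lowest group. The TATA box letters TATAAA, searched on both strands, were in 6.34% of the expressed and 21.2% of the silent windows. Genes genomewide share families and neighbourhoods, so these shares are a description without a test. For the class between, 77.8% had a window, and for the B cell identity list 72.7%, so that check is void for both.

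**Figure D5:**
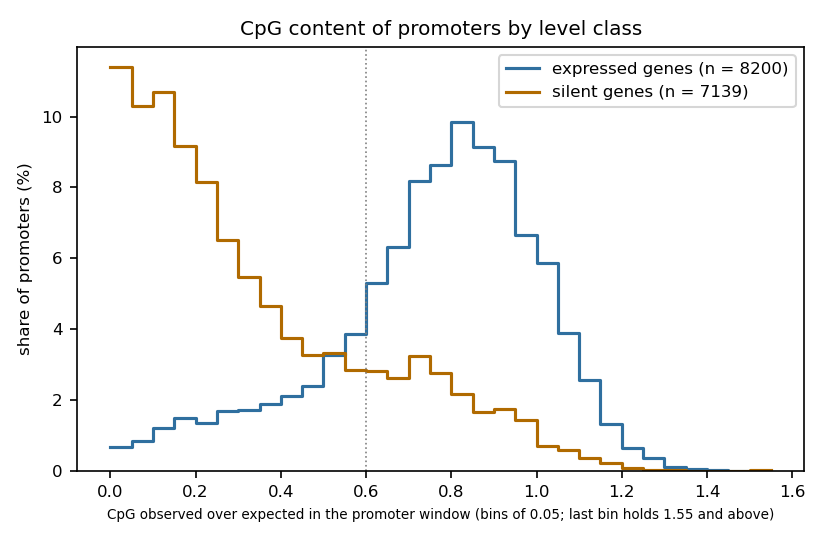
The x axis is the ratio of observed to expected CpG in the promoter window in bins of 0.05, the y axis the share of promoters in percent, for expressed (blue) and silent (brown) genes, with a dotted line at 0.6. Silent genes pile up near 0, and most expressed genes (77.7%) lie at 0.6 or above.

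The counts were spread over many genes. Eef1a1, the translation elongation factor, led the genes kept with 8829 and 8901 CPM per kb and 1.56% of the counts, followed by Ighg2c, Eno1b, Cd74 and Eef2 (3471 ± 259). The 10 genes with the most counts held 6.59% ± 0.314 of them, the top 100 held 19.9% ± 0.349 and the top 1000 held 53.9% ± 0.236, and 828 and 814 genes made up 50% of the counts. Besides the enzymes and Igkc (1979), the 25 highest per kb held ribosomal protein genes (Rpl8, Rpl4, Rps15, Rplp1, Rplp0, Rps26 and Rps20). They also held the copies Gapdh-ps15 and Rpl13-ps6, the loci Gm9794, Gm15772, Gm15501 and Gm10051, Hsp90ab1 (1955), Actb (1949.7) and Mir682. The counted length of Mir682, 96 bases, makes its level per kb unreliable. Protein-coding genes held 94.4% of the counts kept and pseudogenes 2.90%, with another 1.71% in transcribed pseudogenes. Of 16 housekeeping genes 15 were expressed.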

How the data were processed

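Per the study's methods, the authors aligned paired-end reads with Rsubread to mm10 and used featureCounts, with the RefSeq annotation built into it, to count them. The deposited values are raw counts per gene with the counted length, and use of strand and treatment of shared reads are not given in the sources used here. The series-wide table holds the counts of all 6 libraries again and was left aside.

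Symbols and positions came from RefSeq for GRCm38.p6, matched by gene identifier (25275 of 27179). Following the paper's filter, identifiers without a symbol, with a shared symbol, on the mitochondrial genome, or of type rRNA or other were left out, 5.01% and 5.71% of the counts, leaving 25227 genes. TMM factors were computed with edgeR 4.0.16 in R 4.3.3 from all 6 libraries over 12430 genes kept by filterByExpr, and CPM, CPM per kb and their SD over 2 libraries with numpy 2.4.6 and pandas 2.3.3. Nothing was tested between groups. The code for the classes was run on counts simulated with counting error alone, with some genes emptied and others raised well above the limit. This checks the code and not the calls on these data. Intervals and floors were computed from the counts alone and cover counting error only. Reads also carry no molecular identifiers.

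The members and the 24 gene lists were chosen with earlier results of these data known. Genes were named by a rule: the 25 highest per kb, the 4 highest expressed members and the members at the floor of each list (examples of them where many), every expressed gene of another lineage, the markers, the genes the paper names, the 10 largest replicate differences, and members of named families. A few others, such as Tert and Bach2, were chosen after their values were seen. The alternatives were RLE factors, library size only, other thresholds, no annotation filter, TPM and each replicate left out. March1, Hbb-bt and Tf were not analysed here, and some genes of the lists are not reported here.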

Additional observations from a re-analysis of the deposited data

Results flagged for a closer look

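One counted identifier that no result above uses stood out. Gene 100861531, left out because the RefSeq table gave it no symbol, had 202418 counts in replicate 1 and 251840 in replicate 2, which is 4356 and 11762 CPM. It was flagged because it held the most counts of any identifier without a symbol in both libraries. It was higher in replicate 2, as were Rn7sk (3.98 and 8.69 CPM) and Lars2 (2557 and 5562 CPM), and the cause was not tested. The mitochondrial share, also left out, was 2.65% and 2.69%.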

How the results depend on the processing

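The number of expressed genes (10615) ranged from 10026 at 1 CPM per kb to 11118 at 0.5 CPM, and from 10713 to 10715 with either replicate left out. RLE factors gave 10615. The number of silent genes (12166) was 10024 when 0 counts were required and 12262 to 13008 with a replicate left out. Without the annotation filter the share of counts in the top 100 genes was 21.6% in place of 19.9%, and it was 19.7% to 20.2% with a replicate left out. At a CpG ratio of 0.75, 57.8% of expressed and 11.8% of silent promoters were rich in CpG. With the last listed start of each gene, an alternative chosen after seeing the data, the shares were 75.7% and 19.7%. Over the 24 lists, the number of expressed genes stayed within 1.5 times in 21 at 0.5 CPM and in 21 at 1 CPM per kb, and in all 24 with either replicate left out. At 1 CPM per kb the NK list had 0 expressed genes and the stromal list 1. The erythroid list had 4 at 1 CPM per kb and 6 at 0.5 CPM. At 0.5 CPM the NK list had 4 and the germline list 1. TPM values were 1.96 times the CPM per kb at the median gene. No result reversed. No paired analysis was possible because no groups were compared. With 2 replicates, an SD is imprecise, and a level under about 0.140 CPM in replicate 2 lies under the floor of 3 counts.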
